A study of Mus musculus with 6 samples.

Results

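The genes described here take up, bind, activate and oxidise fatty acids in intestinal epithelial cells (IEC), together with the nuclear receptor PPARA, its coactivator Ppargc1a and other known PPARA targets. The list holds genes with known roles in these steps and was drawn up with results of these data in view, and all 43 of the 43 listed were found among the 19616 genes of the deposited count table. All 43 passed the filter on low counts, which left 15618 genes for the test. By step, 9 genes serve uptake, binding and activation, 4 the carnitine shuttle, 16 mitochondrial oxidation and 7 peroxisomal oxidation, and the remaining 7 are regulators and other targets.

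RNA was sequenced from jejunal IEC enriched by EDTA treatment, with 1 library for each of 6 mice aged 3 months. The 3 control mice, named C1, C3 and C3-3, are labelled wildtype, and the 3 Hdac1/2-deleted mice, named H1, H5 and H9, are villin-Cre Hdac1-/-; Hdac2-/-. In the mutants, Cre recombinase under the villin promoter acts in the intestinal epithelium, and the strain is given as C57BL/6J X 129SV X CD1. The comparison asks how the transcripts of IEC differ when both deacetylases are deleted in these cells.

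Long-chain fatty acids enter enterocytes with the help of membrane transporters, are carried by cytosolic binding proteins and are activated to acyl-CoA esters. Mitochondria import these esters through the carnitine shuttle and shorten them by beta-oxidation, while peroxisomes shorten very long and branched chains and pass the products on. PPARA is a nuclear receptor that binds fatty acids, pairs with RXR on DNA and activates many genes of these steps, and in the small intestine it responds to dietary fat.

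Between 36111035 and 65902344 reads were counted per mouse, with the smallest total in H5. Levels are given as CPM, counts per 1000000, after scaling by library total and TMM factor, and the lowest level read as present was set at 3 counts, which is 0.0405 CPM in H1, the lowest, and 0.0790 CPM in H5, the highest. This limit allows for the error of counting and for no other. A gene was called when its adjusted p in edgeR's quasi-likelihood test was at most 0.05 and its level differed at least 2-fold. With 3 mice in each group an exact permutation cannot go below p = 0.10, so single genes were tested only in the fit across all genes.

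Hdac1 was at 39.1, 34.5 and 48.9 CPM in C1, C3 and C3-3 and at 3.97, 2.53 and 4.81 CPM in H1, H5 and H9. All 3 Hdac1/2-deleted mice lay below all 3 controls, and the log2 fold change was -3.43 (standard error 0.26, edgeR adjusted p = 2.9e-05). Hdac2 was at 32.9, 23.6 and 26.5 CPM in the controls and at 26.6, 25.4 and 21.4 CPM in the Hdac1/2-deleted mice. The groups overlapped, with a log2 fold change of -0.18 (standard error 0.17, edgeR adjusted p = 0.44), which turned to 0.01 under scaling by library totals alone. The counts are of whole genes, so they cannot show whether the floxed part of Hdac2 was missing, and that label was not checked by them.

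The libraries held the epithelial RNA that the label names. Of 10 epithelial markers, 0 were at 0 in any mouse, and their summed level was 11961, 12288 and 13445 CPM in the controls and 9889, 11503 and 12082 CPM in the Hdac1/2-deleted mice. Vil1, the most abundant of them, gave 30.6% of that sum. Of these markers, 1 was called higher and 0 lower, with a median log2 fold change of -0.01, the same as over all genes tested. Without the fold limit, 1 was higher and 1 lower at an adjusted p of at most 0.05, beside 20.5% and 20.3% of all genes tested.

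Other marker lists differed between the groups or among the controls. The summed level of 13 mature enterocyte markers was 86283, 101180 and 99534 CPM in the controls and 43226, 36022 and 49408 CPM in the Hdac1/2-deleted mice, with Apoa4 giving 32.2% of the sum. Of these, 5 (38.5%) were called lower and 1 (7.69%) higher, beside 12.7% and 12.4% of all genes tested. Their median log2 fold change was -0.70. The sum of 11 stromal and muscle cell markers was 78.9, 62.1 and 15.4 CPM in C1, C3 and C3-3 and 9.72 to 13.2 CPM in the Hdac1/2-deleted mice, so that C1 and C3 stood above the other 4 mice. Its most abundant gene was Vim, and Myh11 had 1680, 700 and 24 counts in the controls and 1, 0 and 0 in H1, H5 and H9. Immune cell markers summed to 141, 510 and 438 CPM in the controls and to 83.9, 171 and 159 CPM in the Hdac1/2-deleted mice, led by Gzma, and here C1 lay within the range of the Hdac1/2-deleted mice. Of 14 immune markers, with a median of -1.08, 2 (14.3%) were called lower and 1 (7.14%) higher, beside 12.7% and 12.4% of all genes tested. Gzma itself was called lower only with DESeq2, at -1.80, and without C1, at -2.22.

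The remaining lists were smaller in level or moved less. Crypt and proliferating cell markers summed to 825, 577 and 594 CPM in the controls and to 643, 599 and 383 CPM in the Hdac1/2-deleted mice, led by Olfm4. Of these 12, 2 (16.7%) were called lower and 1 (8.33%) higher, beside 12.7% and 12.4% of all genes tested. Their median log2 fold change was 0.12. Endothelial markers, led by Lyve1, summed to 6.91 to 9.33 CPM in the controls and to 17.9 to 21.2 CPM in the Hdac1/2-deleted mice. Called higher were 2 of 5 tested (40.0%), beside 12.4% of all genes tested. Much of the difference in the sum came from Prox1, named after its values were seen, at 1.31 to 1.67 CPM in the controls and 8.03 to 9.75 CPM in the mutants, so the sum does not stand for all 8 markers. Of 9 stromal and muscle markers tested, with a median of -1.48, 5 (55.6%) were called lower, beside 12.7% of all genes tested. The adipocyte list had 2 of 7 genes in the table, Cidec, which gave 99.9% of their sum, and Fabp4. None of these markers was at 0 in every mouse, and Myh11, Lum, Kdr, Emcn, Tie1 and Fabp4 were at 0 in at least 1. The part of these cell types in the results below was not tested. In RNA from a whole cell preparation, fewer cells of a type and less RNA per cell cannot be told apart.

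A further difference among the mice concerns C3. The summed counts of the Y-linked genes Ddx3y, Uty, Kdm5d and Eif2s3y, chosen after values of these data had been seen, were 3082 in C3 and between 1 and 13 in the other 5 mice. The calls of the 43 genes and of the other named genes were therefore also made without each mouse in turn, and a mouse is named where its removal ends a call, turns a direction or brings a gene past both limits.

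Of the 43 genes, 14 (32.6%) were called lower in Hdac1/2-deleted IEC, where 12.7% of all genes tested were. The number called higher was 2 (4.65%), against 12.4% of all genes tested. Without the fold limit, 20 were lower and 5 higher at an adjusted p of at most 0.05, beside 20.3% and 20.5% of all genes tested. These last counts depended more on the processing, with 16 lower and 8 higher under scaling by library totals only, and 16 to 20 lower and 4 to 7 higher when each mouse was left out. The 3 Hdac1/2-deleted mice all lay below the 3 controls for 22 genes and all above them for 6, where 26.6% and 26.7% of all genes tested were so separated. The groups overlapped for the other 15. Each of the 14 genes called lower and the 2 called higher had groups that did not overlap. The median log2 fold change of the 43 genes was -0.52, with a range from -6.28 to 1.16, and the median of all genes tested was -0.01.

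Genes called lower were found in every step. Uptake, binding and activation had 3 of 9 genes called lower and 0 higher, with a median log2 fold change of -0.47. In the mitochondrial steps, carnitine shuttle included, 5 of 20 were called lower and 2 higher, with a median of -0.07, while peroxisomal oxidation had 3 of 7 called lower and 0 higher, with a median of -1.06. All 7 peroxisomal genes had negative log2 fold changes. Among regulators and other targets, 3 of 7 were called lower and 0 higher, with a median of -1.12. The 16 genes of mitochondrial oxidation alone, with 18.8% called lower and 12.5% higher, were near the 12.7% and 12.4% of all genes tested. The difference between steps was not tested.

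**Figure D1:**
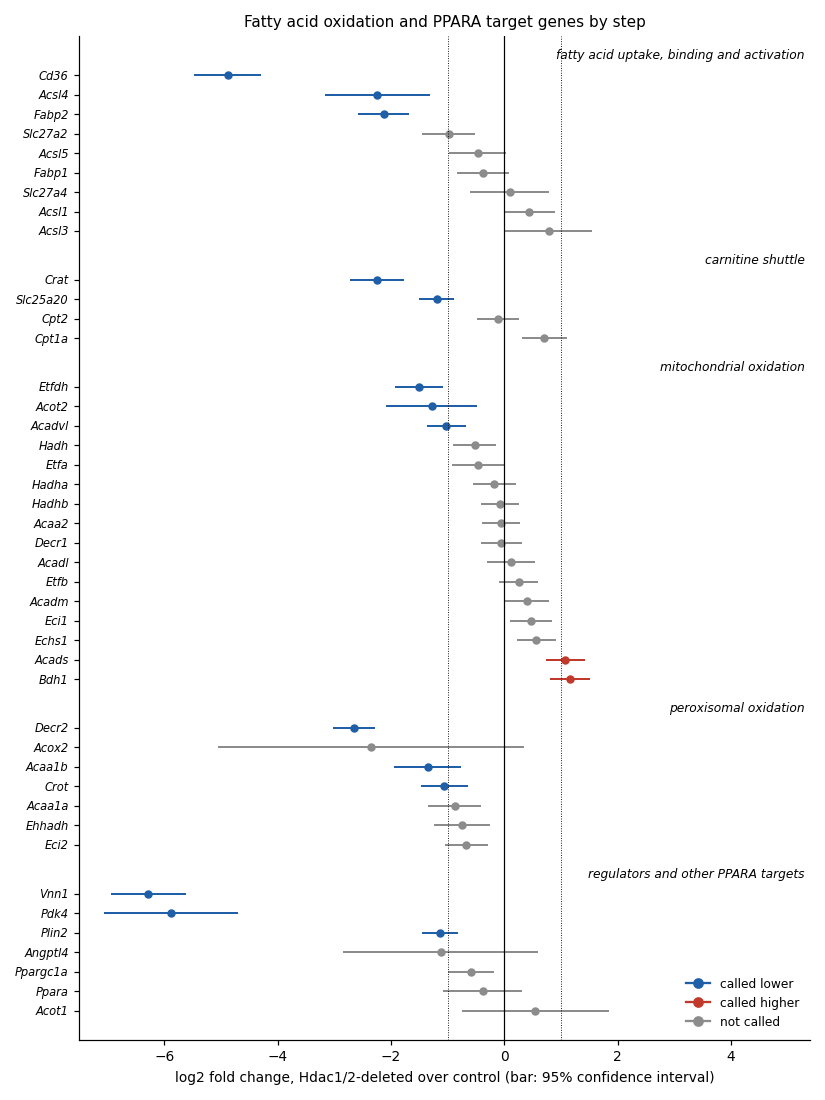
Log2 fold change of each of the 43 genes, Hdac1/2-deleted over control (n = 3 mice each), in 5 groups by step, with bars for the 95% confidence interval from edgeR's quasi-likelihood fit and dotted lines at a 2-fold difference. Blue marks the 14 genes called lower and red the 2 called higher; Vnn1, Pdk4 and Cd36 lie farthest to the left, at -6.28, -5.89 and -4.88.

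The summed level of each step was also compared mouse by mouse. The uptake genes summed to 10857, 12507 and 11792 CPM in the controls and to 7366, 6433 and 8498 CPM in the Hdac1/2-deleted mice. Most of this difference came from Fabp2, with group means of 3398 and 774 CPM. The carnitine shuttle genes summed to 734, 856 and 741 CPM in the controls and to 603, 564 and 661 CPM in the mutants. The genes of mitochondrial oxidation summed to 4222, 4885 and 4557 CPM and to 4369, 3952 and 4450 CPM, so that these groups overlapped. For peroxisomal oxidation the sums were 881, 1077 and 1077 CPM in the controls and 520, 488 and 536 CPM in the mutants, a ratio of the means of 0.509. The regulators and other targets summed to 1280, 669 and 676 CPM in the controls and to 229, 222 and 238 CPM in the mutants, and C1 stood apart from the other 2 controls. Here Vnn1 and Pdk4 made up most of the difference, with control means of 243 and 220 CPM. For comparison, the ratio of the mutant to the control mean was 0.935 for mitochondrial oxidation, 0.634 for uptake, 0.263 for regulators and targets, and 0.448 for the mature enterocyte markers.

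**Figure D2:**
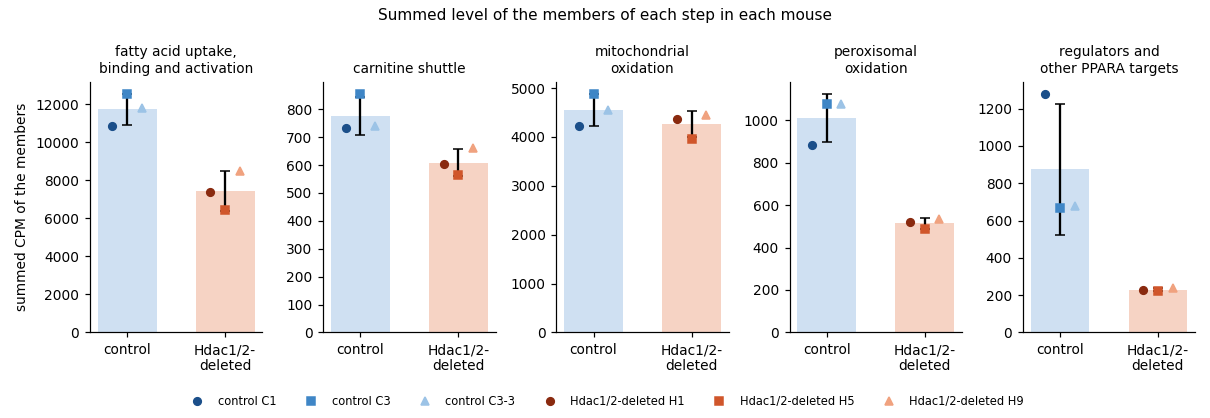
Summed CPM of the genes of each step in each mouse; bars are means and error bars 1 SD (n = 3 mice), each panel has its own axis from 0, and points are single mice. The groups overlap in the panel of mitochondrial oxidation and are separate in the other 4.

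Cd36, the scavenger receptor that binds long-chain fatty acids at the cell surface, was at 248, 190 and 281 CPM in C1, C3 and C3-3. In H1, H5 and H9 it was at 7.17, 6.66 and 10.6 CPM. All 3 controls lay far above all 3 Hdac1/2-deleted mice, and within each group the highest mouse was at most 1.59 times the lowest. The log2 fold change was -4.88 (standard error 0.25, edgeR adjusted p = 4.1e-06), which makes the level 29.5-fold lower. Raw counts were 10549 to 16454 in the controls and 253 to 650 in the mutants. The gene, ENSMUSG00000002944, lies on chromosome 5 from 17781690 to 17888801 of GRCm38, on the minus strand.

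Fabp2, the intestinal fatty acid binding protein, was at 3629, 3138 and 3427 CPM in the controls and at 786, 645 and 891 CPM in the mutants. The groups were separate and each was tight. Its log2 fold change was -2.13 (standard error 0.19, edgeR adjusted p = 6.0e-05). Fabp1, the liver form that enterocytes also make, was at 3559, 3870 and 3643 CPM in the controls and at 3262, 2293 and 2976 CPM in the mutants. These groups did not overlap either, but the log2 fold change of -0.38 (95% confidence interval -0.81 to 0.06, edgeR adjusted p = 0.15) did not pass the test. The 2 binding proteins thus differed in their fold changes, though that difference was not tested.

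Among the transporters, Slc27a2, an acyl-CoA synthetase for very long chains that also takes part in uptake, was at 344, 328 and 389 CPM in the controls and at 200, 130 and 207 CPM in the mutants. The groups were separate, and the log2 fold change of -0.98 (standard error 0.20, edgeR adjusted p = 0.0038) fell just short of the 2-fold limit. It passed the limit at -1.01 with limma-voom, and at -1.03, -1.07 and -1.09 without C3, H1 and H9, and was farther from it at -0.79 with library totals only, -0.79 without H5 and -0.90 without C3-3. Slc27a4, the main fatty acid transport protein of the small intestine, was at 1098, 2470 and 1633 CPM in the controls and at 1431, 1904 and 2227 CPM in the mutants. The control range enclosed that of the mutants, and the log2 fold change was 0.10 (95% confidence interval -0.58 to 0.78), or -0.14 without C1 and -0.05 without H9.

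Of the 4 long-chain acyl-CoA synthetases, which attach CoA to the fatty acid, only Acsl4 passed the test. Acsl5, the abundant form of the enterocyte, was at 1780 to 2373 CPM in the controls and 1258 to 1924 CPM in the mutants, with overlapping groups and a log2 fold change of -0.47 (edgeR adjusted p = 0.11). Acsl4 was at 1.21, 2.02 and 2.20 CPM in the controls and at 0.486, 0.263 and 0.374 CPM in the mutants, from 80 to 117 and 10 to 36 raw counts. It was called lower, with a log2 fold change of -2.24 (standard error 0.40, edgeR adjusted p = 0.0022). Acsl1 had a log2 fold change of 0.44 (edgeR adjusted p = 0.093) and Acsl3 one of 0.79 (edgeR adjusted p = 0.087). In Acsl3, H1 was at 51.4 CPM beside 19.8 and 29.9 CPM in H5 and H9, and the gene was called higher, at 1.07, only without H5.

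**Figure D3:**
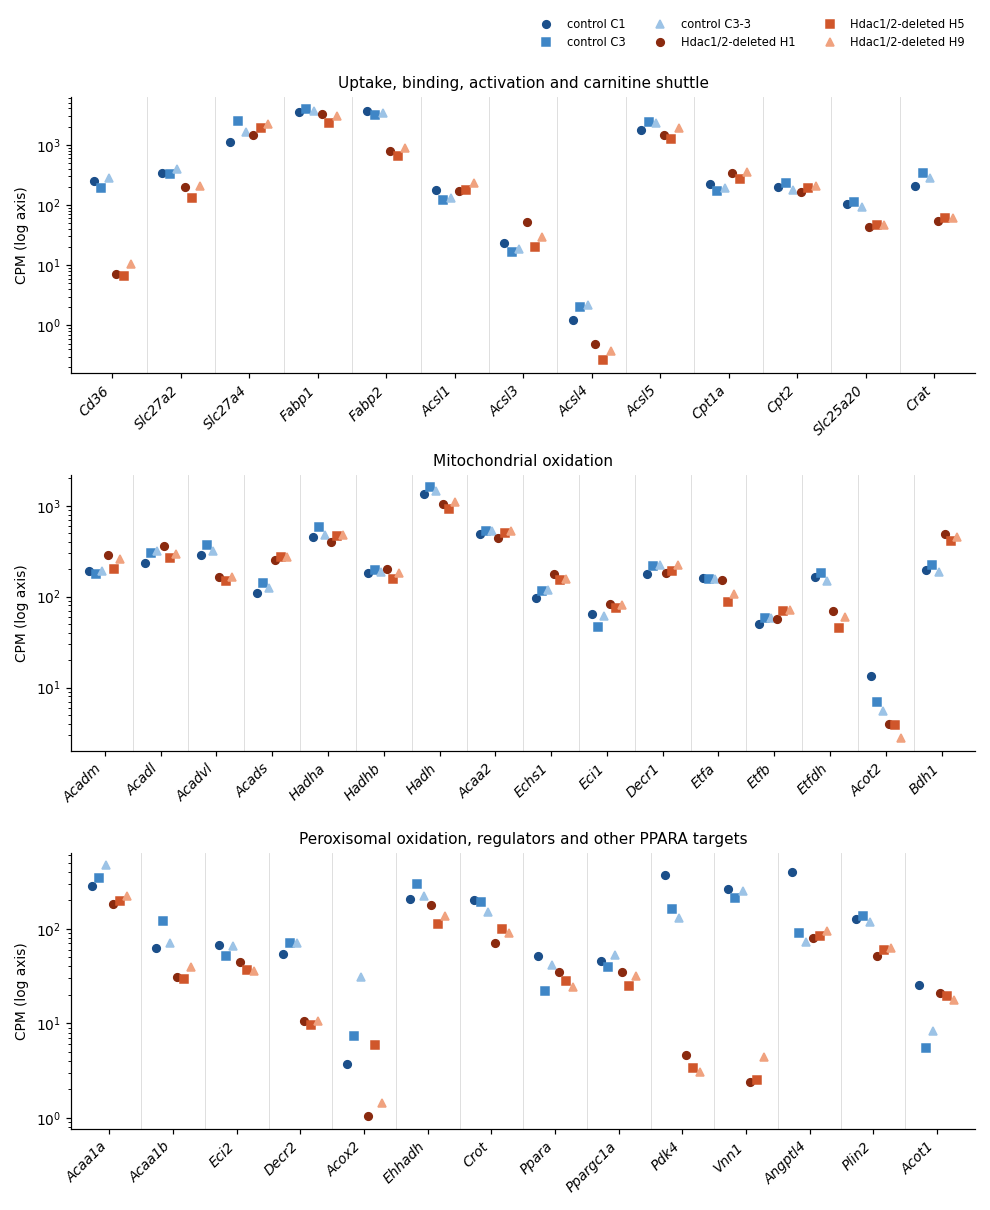
Level of each of the 43 genes in each mouse in CPM on a log axis, in 3 panels by step; blue points are the 3 controls and red points the 3 Hdac1/2-deleted mice, with 1 symbol per mouse. The groups are farthest apart for Vnn1, Pdk4 and Cd36, while Hadha, Hadhb, Acaa2 and Decr1 overlap.

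In the carnitine shuttle, Cpt1a makes the acylcarnitine at the outer mitochondrial membrane and Slc25a20 carries it through the inner membrane, where Cpt2 returns the acyl group to CoA. Slc25a20 was at 105, 111 and 93.3 CPM in the controls and at 42.7, 46.6 and 46.0 CPM in the mutants. The groups were separate, with a log2 fold change of -1.19 (standard error 0.13, edgeR adjusted p = 1.7e-04). Cpt1a was at 223, 170 and 193 CPM in the controls and at 342, 268 and 350 CPM in the mutants. Here every mutant lay above every control, and the log2 fold change of 0.71 (standard error 0.17, edgeR adjusted p = 0.0087) passed the test without reaching 2-fold. Cpt2 was at 175 to 228 CPM in the controls and 164 to 204 CPM in the mutants, with a log2 fold change of -0.11, which turned to 0.07 under scaling by library totals only.

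Crat, the carnitine acetyltransferase, was at 207, 346 and 279 CPM in the controls. In the mutants it was at 53.6, 61.4 and 60.8 CPM. The mutants lay close together and well below the lowest control, with a log2 fold change of -2.24 (standard error 0.20, edgeR adjusted p = 6.0e-05). It showed the largest decrease of the 20 mitochondrial genes in this fit. Its exons overlap those of Dolpp1 and Gm16323 on the opposite strand.

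Of the 16 genes of mitochondrial oxidation, 3 (18.8%) were called lower and 2 (12.5%) higher, near the 12.7% and 12.4% of all genes tested, 9 had negative and 7 positive log2 fold changes, and the median was -0.06. The acyl-CoA dehydrogenases, which start each cycle on chains of different length, moved apart. Acadvl, for very long chains, was at 286, 367 and 314 CPM in the controls and at 163, 149 and 164 CPM in the mutants. It was lower in all 3 mutants, with a log2 fold change of -1.02 (standard error 0.15, edgeR adjusted p = 7.5e-04), close to the 2-fold limit. It fell short of that limit at -0.82 with library totals only, -0.91 without C3 and -0.97 without H5. Acads, for short chains, was at 111, 141 and 126 CPM in the controls and at 255, 275 and 271 CPM in the mutants. Every mutant was above every control, with a log2 fold change of 1.08 (standard error 0.14, edgeR adjusted p = 4.5e-04). Acadm, for medium chains, and Acadl, for long chains, had log2 fold changes of 0.41 (edgeR adjusted p = 0.075) and 0.12 (edgeR adjusted p = 0.62), the latter -0.01 without H1.

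The enzymes that follow in the cycle differed less than 2-fold between the groups. Hadha and Hadhb, the subunits of the trifunctional protein, were at 452 to 581 and 183 to 196 CPM in the controls and at 398 to 480 and 156 to 199 CPM in the mutants. Their log2 fold changes were -0.18 (95% confidence interval -0.54 to 0.19) and -0.07 (95% confidence interval -0.39 to 0.25). The thiolase Acaa2 had one of -0.06 and the dienoyl-CoA reductase Decr1 one of -0.05. The sign of these 4 values turned with the scaling, to 0.01, 0.12, 0.13 and 0.14 with library totals only. It also turned for Hadhb without H5, at 0.03, for Acaa2 without H1, at 0.01, and for Decr1 without C3-3 and without H1, at 0.02 each. Hadh, the 3-hydroxyacyl-CoA dehydrogenase, was lower in each mutant, at 919 to 1104 CPM beside 1350 to 1595 CPM, with a log2 fold change of -0.52 (edgeR adjusted p = 0.029). Echs1 and Eci1, a hydratase and an isomerase, were higher in each mutant, with 0.56 (edgeR adjusted p = 0.012) and 0.47 (edgeR adjusted p = 0.037). Hadh and Eci1 lay near the limit on p, and each was above 0.05 in all but 1 of the fits with a mouse left out, as was Hadh with library totals only, at 0.082.

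Electrons from the dehydrogenases pass through the flavoprotein made of Etfa and Etfb to Etfdh, which hands them to the respiratory chain. Etfdh was at 164, 181 and 149 CPM in the controls and at 69.0, 44.8 and 59.9 CPM in the mutants. The groups were separate, with a log2 fold change of -1.51 (standard error 0.18, edgeR adjusted p = 2.9e-04). Etfa was at 159, 156 and 157 CPM in the controls and at 151, 87.5 and 106 CPM in the mutants, with a log2 fold change of -0.46 (edgeR adjusted p = 0.091). Etfb was at 50.2 to 58.3 CPM in the controls and 56.6 to 71.8 CPM in the mutants, with 0.26 (edgeR adjusted p = 0.18). The 3 genes of this relay thus did not share a direction, although neither value of the flavoprotein subunits passed the test.

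Bdh1, which interconverts acetoacetate and beta-hydroxybutyrate, was at 195, 224 and 187 CPM in the controls and at 492, 406 and 454 CPM in the mutants. All 3 mutants were above all 3 controls, and its log2 fold change of 1.16 (standard error 0.15, edgeR adjusted p = 4.3e-04) was the largest increase among the 43 genes in this fit. Acot2, a thioesterase of the mitochondrial matrix, was at 13.3, 6.86 and 5.48 CPM in the controls and at 3.93, 3.87 and 2.76 CPM in the mutants. C1 was the highest control, and the log2 fold change of -1.28 (standard error 0.35, edgeR adjusted p = 0.017) became -0.80 (edgeR adjusted p = 0.052) without C1. Without H9 it was -1.12 (edgeR adjusted p = 0.061).

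All 7 peroxisomal genes had log2 fold changes between -2.65 and -0.67, and 6 of them were lower at an adjusted p of at most 0.05 without the fold limit. Under scaling by library totals only, Eci2 and Ehhadh missed that limit, with adjusted p of 0.073 and 0.066, which left 4. Decr2, the peroxisomal dienoyl-CoA reductase, was at 54.0, 70.4 and 70.7 CPM in the controls and at 10.6, 9.71 and 10.7 CPM in the mutants. The mutants were nearly alike and far below the controls, with a log2 fold change of -2.65 (standard error 0.16, edgeR adjusted p = 8.6e-06). Its mitochondrial counterpart Decr1, described above, was at 177 to 224 CPM in the controls and 180 to 224 CPM in the mutants. Crot, which loads shortened chains onto carnitine for export, was at 203, 191 and 149 CPM in the controls and at 70.9, 99.4 and 91.3 CPM in the mutants. It was called lower at -1.06 (standard error 0.18, edgeR adjusted p = 0.0017), and fell short of 2-fold at -0.96 without C1, -0.92 without H1 and -0.88 with library totals only.

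The peroxisomal thiolases Acaa1a and Acaa1b are near copies, and 21.6% and 22.6% of the 100-base stretches of their longest coding transcripts occur unchanged in the other gene, so reads could be split between them. Acaa1a was at 284, 341 and 469 CPM in the controls and at 183, 195 and 220 CPM in the mutants. Acaa1b was at 62.9, 120 and 70.2 CPM in the controls and at 30.9, 29.3 and 39.1 CPM in the mutants. Both were lower in every mutant than in any control. The log2 fold change was -0.87 (standard error 0.20, edgeR adjusted p = 0.0074) for Acaa1a, or -1.02 without C1, past the 2-fold limit, and -0.64 without C3-3, the highest control, and -1.35 (standard error 0.25, edgeR adjusted p = 0.0030) for Acaa1b.

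Ehhadh, the bifunctional enzyme of the peroxisomal cycle, was at 206, 295 and 221 CPM in the controls and at 179, 112 and 138 CPM in the mutants. Eci2, an isomerase also found in mitochondria, was at 51.9 to 68.0 CPM in the controls and 35.6 to 44.4 CPM in the mutants. Both had separate groups and decreases of less than 2-fold, with log2 fold changes of -0.75 (edgeR adjusted p = 0.019) and -0.67 (edgeR adjusted p = 0.0086). For Ehhadh the adjusted p was 0.059 without C3, 0.074 without H5 and 0.064 without H9. Acox2, the oxidase for branched chains, was at 3.71, 7.36 and 31.0 CPM in the controls and at 1.04, 5.92 and 1.43 CPM in the mutants. The mice of each group were far apart, C3-3 and H5 being the high ones. The log2 fold change of -2.35 had a 95% confidence interval from -5.03 to 0.33 (edgeR adjusted p = 0.14), and was -0.99 without C3-3 and -3.50 without H5.

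The receptor and its coactivator had smaller log2 fold changes than several of the targets. Ppara was at 51.8, 22.0 and 41.0 CPM in the controls and at 35.3, 28.2 and 24.5 CPM in the mutants. The control range enclosed all 3 mutants, and the log2 fold change was -0.38 (95% confidence interval -1.06 to 0.29, edgeR adjusted p = 0.33). It was -0.66 (edgeR adjusted p = 0.034) without C3, the lowest control, and -0.10 (edgeR adjusted p = 0.81) without C1, the highest. Ppargc1a, a coactivator of PPARA and of mitochondrial biogenesis, was at 46.1, 39.7 and 52.2 CPM in the controls and at 34.8, 25.1 and 31.8 CPM in the mutants. Its groups were separate, with a log2 fold change of -0.59 (standard error 0.17, edgeR adjusted p = 0.022), under 2-fold. The adjusted p was 0.13 with library totals only, and 0.090, 0.065 and 0.054 without C3-3, H5 and H9.

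Vnn1, a pantetheinase and a known PPARA target, was at 265, 213 and 252 CPM in the controls and at 2.42, 2.53 and 4.41 CPM in the mutants. The controls lay within a narrow range, and all 3 mutants were far below it. The log2 fold change of -6.28 (standard error 0.28, edgeR adjusted p = 2.8e-06) was the largest decrease among the 43 genes in this fit, 77.8-fold, from 11830 to 17553 raw counts in the controls and 96 to 271 in the mutants. Pdk4, the kinase that shuts off pyruvate dehydrogenase when fat is burned, was at 368, 163 and 130 CPM in the controls and at 4.68, 3.40 and 3.04 CPM in the mutants. The mutants were alike, while C1 was more than 2-fold above C3 and C3-3. The log2 fold change was -5.89 (standard error 0.49, edgeR adjusted p = 1.6e-04) with all mice and -5.29 without C1. Plin2, which coats lipid droplets, was at 128, 135 and 119 CPM in the controls and at 51.8, 59.4 and 62.9 CPM in the mutants. It was called lower at -1.13 (standard error 0.13, edgeR adjusted p = 2.6e-04), and at -0.95 with library totals only it fell short of 2-fold.

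Angptl4 and Acot1 depended on a single control. Angptl4, a secreted inhibitor of lipoprotein lipase, was at 397, 91.3 and 73.3 CPM in C1, C3 and C3-3 and at 79.7, 84.2 and 94.0 CPM in the mutants. C1 lay above the other 5 mice, which overlapped, and the log2 fold change of -1.12 (95% confidence interval -2.82 to 0.58, edgeR adjusted p = 0.25) turned to 0.07 without C1. Acot1, a cytosolic thioesterase, was at 25.5, 5.47 and 8.37 CPM in the controls and at 20.7, 19.5 and 17.6 CPM in the mutants. With all mice its log2 fold change was 0.55 (edgeR adjusted p = 0.45), and without C1, when every mutant lay above both remaining controls, it was 1.48 (edgeR adjusted p = 0.0017). Acot1 shares 16.5% of its 100-base stretches with Acot2, and Acot2 17.1% with Acot1, so these levels are uncertain too.

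Pdk4, Angptl4 and Acot1 were the 3 genes of the 43 for which C1 was at least 2-fold above both other controls, a pattern found in 2.48% of all genes tested. No gene of the 43 had C1 at least 2-fold below both, as 4.57% of all genes tested did. Among the controls, the highest mouse was at least 2 times the lowest for 7 of the 43 genes, against 22.5% of all genes tested, and among the mutants for 2, against 21.3%. How far these counts differ from the shares of all genes was not tested, nor was any cause. When and what the mice had eaten is not given in the sources used here.

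**Figure D4:**
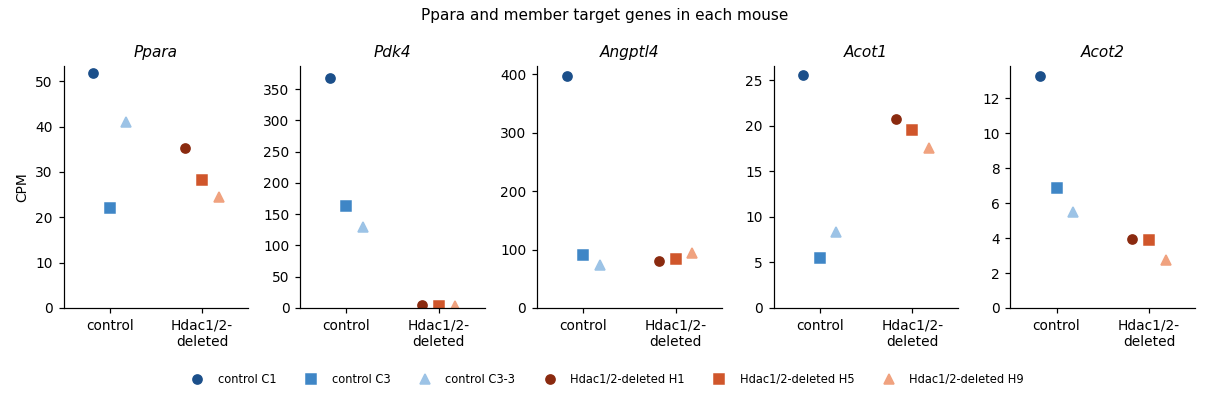
CPM of Ppara and of 4 target genes among the 43 in each mouse, each panel with its own axis from 0; blue points are the 3 controls and red points the 3 Hdac1/2-deleted mice. C1, the dark blue circle, is the highest control in all 5 panels, and at 397 CPM it stands above the other 5 mice for Angptl4.

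Levels were compared between genes per length, as CPM per kilobase of exon. Length here is the union of all annotated exons of a gene, which can exceed the length of its transcripts. For Acaa1a it is 4414 bases, beside 1762 in its longest coding transcript, while for Acot2 both are 2196 bases. The order between genes therefore depends on this choice of length and is uncertain. On this scale Fabp1 was first in both groups, at 6674 in the controls and 5142 in the mutants. Fabp2 was second in both, at 3521 and 802. Together they made up 50.1% and 26.4% of the summed length-scaled level of the 43 genes in the controls, and 60.8% and 9.49% in the mutants. Next in the controls came Acsl5 at 440, Slc27a4 at 393 and Acaa2 at 339, and the order of these 3 was Slc27a4, Acaa2 and Acsl5 in the mutants, at 420, 325 and 318. These neighbours lie within the spread of the mice, since Slc27a4 alone varied 2.25-fold among the controls. Acsl4 was last in both groups, at 0.335 and 0.0693.

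The order changed most for the genes with the largest decreases. On the length-scaled scale Vnn1 went from rank 9 of 43 in the controls, at 101, to rank 40 in the mutants, at 1.29. Cd36 went from rank 15, at 66.8, to rank 38, at 2.27, and Pdk4 from rank 16, at 62.7, to rank 41, at 1.06. In the other direction, Acads went from rank 18, at 55.6, to rank 8, at 118, and Bdh1 from rank 21, at 52.0, to rank 9, at 116. Genes that were not called also moved up, among them Acadm from rank 23 to rank 11 and Echs1 from rank 35 to rank 24. These ranks describe the group means, depend on the exon lengths used and were not tested.

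**Figure D5:**
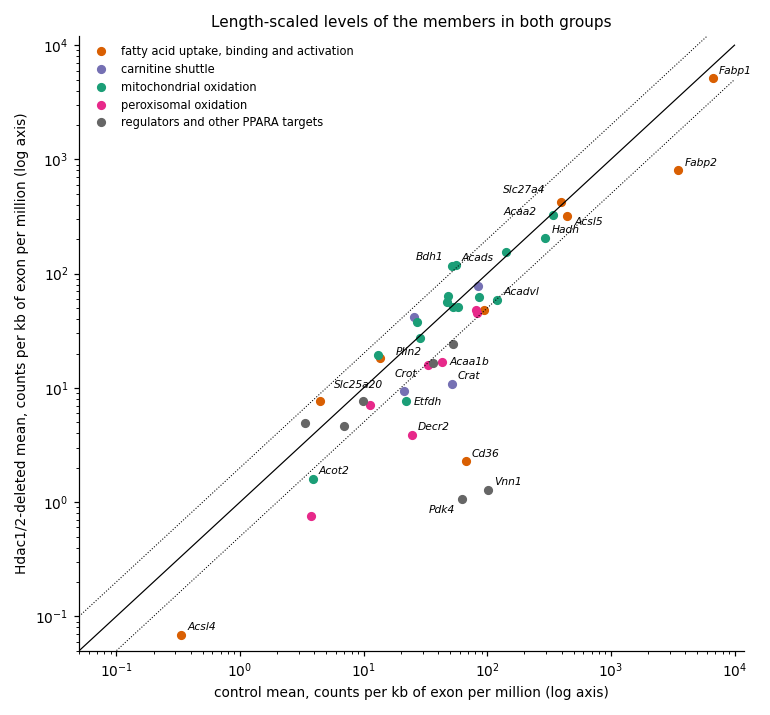
Group means of the 43 genes in CPM per kilobase of exon, control on the horizontal and Hdac1/2-deleted on the vertical log axis, coloured by step; the solid line marks equal levels and the dotted lines a 2-fold difference. Fabp1 and Fabp2 lie at the upper right, at 6674 and 3521 in the controls, and Cd36, Vnn1 and Pdk4 lie farthest below the lines.

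PPARA and RXR bind DNA together at a direct repeat of the hexamer AGGTCA with 1 base between the copies, written AGGTCANAGGTCA. This motif was searched on both strands of the promoter windows of RefSeq on GRCm38.p6, which run from 250 bases before to 50 bases after each start. Windows were matched for 38 of the 43 genes, 41 windows in all, and Vnn1, Acaa2, Decr1, Crat and Angptl4 had no entry. With up to 2 mismatches over the 12 letters of the hexamers, 7 of the 41 windows (17.1%) held the motif, against 1268 of all 32851 windows (3.86%). With at most 1 mismatch it was 1 of 41, in Fabp1, against 0.554% of all windows, and 0 of 41 windows held an exact match, against 0.0396%. The 7 genes were Acox2, Cd36, Echs1, Etfa, Fabp1, Plin2 and Slc25a20, of which Cd36, Plin2 and Slc25a20 were called lower and the other 4 were not called. A match says only that these letters are present, and no binding was measured here.

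The windows of the gene with the closest match and of the 3 genes with a match that were called lower are shown so that the matched bases can be read in place, with the match in capitals. That of Fabp1 is chr6:71199629-71199928 on the plus strand, with 1 mismatch, and the match begins 67 bases before the start and reads on the opposite strand. That of Cd36 is chr5:17835847-17836146 on the minus strand, with 2 mismatches and the match on the opposite strand 63 bases before the start. This start lies inside the gene, whose annotated 5′ end is at 17888801, and which start these cells use was not tested. For Plin2 it is chr4:86670010-86670309 on the minus strand, with 2 mismatches and the match on the opposite strand 225 bases before the start. For Slc25a20 it is chr9:108661886-108662185 on the plus strand, with 2 mismatches, and the match begins at base 7 after the start on the same strand. All 4 sequences are from RefSeq, build GRCm38.p6, 5′ to 3′ on the strand of the gene.
Fabp1: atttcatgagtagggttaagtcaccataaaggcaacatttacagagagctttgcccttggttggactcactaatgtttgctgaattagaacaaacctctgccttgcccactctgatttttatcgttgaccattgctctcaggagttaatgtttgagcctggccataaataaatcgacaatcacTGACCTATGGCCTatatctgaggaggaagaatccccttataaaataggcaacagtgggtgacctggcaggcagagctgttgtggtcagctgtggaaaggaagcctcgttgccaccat
Cd36: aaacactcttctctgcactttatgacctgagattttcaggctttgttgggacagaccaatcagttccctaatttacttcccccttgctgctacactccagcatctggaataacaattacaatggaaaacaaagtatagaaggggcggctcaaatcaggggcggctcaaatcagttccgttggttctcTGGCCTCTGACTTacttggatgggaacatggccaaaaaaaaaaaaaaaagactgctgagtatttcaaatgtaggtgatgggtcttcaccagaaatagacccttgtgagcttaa
Plin2: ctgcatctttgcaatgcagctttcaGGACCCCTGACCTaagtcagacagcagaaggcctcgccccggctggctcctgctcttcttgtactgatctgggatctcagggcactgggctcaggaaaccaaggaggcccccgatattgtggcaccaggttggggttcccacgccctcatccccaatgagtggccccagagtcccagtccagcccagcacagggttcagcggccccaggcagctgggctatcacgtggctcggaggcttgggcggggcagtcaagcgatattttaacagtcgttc
Slc25a20: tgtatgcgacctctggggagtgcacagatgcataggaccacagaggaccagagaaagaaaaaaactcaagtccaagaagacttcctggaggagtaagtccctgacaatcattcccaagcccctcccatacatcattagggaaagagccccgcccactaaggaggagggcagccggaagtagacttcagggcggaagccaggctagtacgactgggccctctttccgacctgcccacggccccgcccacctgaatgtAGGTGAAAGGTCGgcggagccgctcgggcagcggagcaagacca
Set beside the RNA values, the promoter with the closest match belongs to Fabp1, whose log2 fold change of -0.38 did not pass the test, and Cd36 at -4.88, Slc25a20 at -1.19 and Plin2 at -1.13 each had 2 mismatches. Pdk4, at -5.89, had a window without a match of up to 2 mismatches. That says only that these letters are absent from this window.

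Other genes of fatty acid oxidation and other PPARA targets were counted from a longer list. Of 60 listed, 55 were in the table and 52 were tested, of which 17 (32.7%) were called lower and 3 (5.77%) higher, against 12.7% and 12.4% of all genes tested, with a median log2 fold change of -0.59. The 5 largest decreases were those of Cyp4a10 (-5.13), a fatty acid omega-hydroxylase, Acot12 (-3.84), an acetyl-CoA hydrolase, Retsat (-2.72), a retinol saturase, Acad12 (-2.47), an acyl-CoA dehydrogenase, and Abcd4 (-2.25), an ABC transporter. Cyp4a10 was low in all mice, at 5.51 to 7.45 CPM in the controls and 0.0527 to 0.325 CPM in the mutants. Its 2 counts in H5 are below the floor of 3, and its log2 fold change was -5.86 without H9, so the size of this decrease is uncertain. The 3 increases were those of the lipid droplet protein Plin5 (6.15), the ketone body enzyme Oxct1 (2.34) and the acyl-CoA synthetase Slc27a3 (2.13). Plin5 was at 0.0360 to 0.196 CPM in the controls and at 12.7, 7.66 and 7.66 CPM in the mutants, with 2 counts in C3, also below the floor, while Oxct1 was at 77.9 to 103 and 397 to 511 CPM. Both Oxct1 and Bdh1 act on ketone bodies, and both rose. Gpd1, the most abundant gene of this list, had a log2 fold change of 0.92 and passed the 2-fold limit at 1.12 with library totals only, 1.05 without C3 and barely without H1.

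Among 22 tested receptors, partners and coregulators outside the 43 genes, 2 (9.09%) were called lower and 3 (13.6%) higher, with a median log2 fold change of -0.17. These shares are near the 12.7% and 12.4% of all genes tested, so the genes below are given for their roles. Hnf4a was the most abundant, at 678 to 754 CPM in the controls and 556 to 620 CPM in the mutants, with -0.30 (edgeR adjusted p = 0.13). The 3 called higher were the phosphatidate phosphatase and coactivator Lpin1 (2.10) and the PGC-1 family genes Ppargc1b (1.52) and Pprc1 (edgeR adjusted p = 0.013), the last at the 2-fold limit. The 2 called lower were the deacetylase Sirt1 (-1.15) and the corepressor Ncor1 (-1.01). Ncor1 lay near the limit too. Pprc1 was called only with C3, C3-3, H1 and H5 each kept in, at 0.82, 0.92, 0.99 and 0.88 without them, and Ncor1 at -0.98 without C1, -0.92 without C3 and -0.96 without H1. Ncor1 also lost its call, by a margin under the second decimal, with relative log expression size factors, with DESeq2 and with at least 10 counts asked of every sample. Sirt1 and Ncor1 fell short of 2-fold at -0.96 and -0.82 with library totals only.

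The tricarboxylic acid cycle, which burns the acetyl-CoA that oxidation yields, and pyruvate dehydrogenase had 0 of 23 tested genes called lower and 1 higher in edgeR, with a median log2 fold change of 0.10. Without the fold limit, 2 were lower and 3 higher at an adjusted p of at most 0.05. The 2 lower ones, named after their values were seen, were Pdk1 (-0.57) and Pdk2 (-0.73), kinases that inhibit pyruvate dehydrogenase like Pdk4, which is counted among the 43 genes and not in this list. Pdk3, the other such kinase of this list, had overlapping groups and a log2 fold change of 0.05 (edgeR adjusted p = 0.87). Pdk1 missed the limit on p with library totals only, at -0.37, and Pdk2 without C3-3, H1 and H5, at -0.56, -0.65 and -0.63. The gene called higher was Pdhb (1.17), a subunit of the enzyme that Pdk4 inhibits, and Mdh2, the most abundant, was at 0.23 with overlapping groups. Of 16 genes of peroxisome biogenesis, 3 (18.8%) were called lower and 1 (6.25%) higher, with a median of -0.12, and without the fold limit 5 were lower and 5 higher, beside 20.3% and 20.5% of all genes tested. Of all genes tested, 12.7% were called lower and 12.4% higher, while the tricarboxylic acid cycle list had 0% and 4.35%. How far either list differs from these shares was not tested. The summed level of the peroxisome biogenesis genes was 612, 640 and 673 CPM in the controls and 726, 658 and 734 CPM in the mutants, with overlapping groups.

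For the 27 genes of the 43 that were not called, the 95% confidence interval lay within a 2-fold difference either way for 17. The interval reached beyond 2-fold for the other 10, among them Acox2, Angptl4, Acot1 and Ppara, for which these mice leave the size of any difference wide. Of the 43 genes, 15 have exons that overlap another gene, 3 on the same strand and 13 on the other, and 5 of the genes called lower and 1 called higher are among them. The libraries were directional, but whether strand was used in counting is not given in the sources used here, so those levels could include reads of the neighbouring gene.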

How the data were processed

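RNA of 6 jejunal IEC preparations was sequenced from directional libraries, 1 per mouse. The authors deposited raw counts per gene, and these counts were used. Per the submitters' notes, reads came from bcl2fastq 1.8.4 and were aligned with STAR 2.4.0f1 to mm9, while the study's methods name GRCm38. The counting program, its annotation and its use of strand are not given in the sources used here. The 6 rounded normalized columns and the authors' comparison columns, with fold changes and p-values, were not used. Each gene of the table has at least 10 counts over the 6 mice.

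Counts were filtered with filterByExpr, scaled by TMM (factors 0.892 to 1.14) and fitted with the robust quasi-likelihood method of edgeR 4.0.16 in R 4.3.3, with a prior count of 0.125. P-values were adjusted by Benjamini-Hochberg over the 15618 genes tested. Intervals are at 95%. Alternatives were relative log expression size factors, library totals only, DESeq2 1.42.0, limma-voom with limma 3.58.1, no filter, at least 10 counts in every sample, leaving out each mouse, no fold limit and a 1.5-fold limit. Exon lengths are unions of GENCODE M21 exons. Promoters are from RefSeq, GRCm38.p6. The code was tested on simulated data. Figures and tables used Python 3.11.15, numpy 2.4.6, pandas 2.3.3 and matplotlib 3.10.9.

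The members and lists were chosen with earlier results of these data known. Named are all 43 genes, and of each other list up to 5 called genes with the largest increases, up to 5 with the largest decreases and the most abundant gene. Of the cell type markers, the most abundant and those at 0 are named. Hdac1 and Hdac2 were read as a check of the labels, which the whole-gene counts of Hdac2 could not give. The Y-linked genes, Prox1, Pdk1, Pdk2 and Pdk3 fall outside this rule, and Pdk3 was read from the fit with all mice only. Single genes of the peroxisome biogenesis list are not reported here. Protein sequences were not analysed here.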

Additional observations from a re-analysis of the deposited data

How the results depend on the processing

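Of 516 values of the 43 genes under the alternatives, 487 kept their direction and their side of the threshold, 9 were weaker, 7 stronger and 13 reversed. Of 14 genes called lower, 10 were called in every setting, all but Acadvl, Acot2, Crot and Plin2, and so were both genes called higher. Of the 27 not called, 15 kept both their direction and their place below the limits throughout. With relative log expression size factors, DESeq2, limma-voom, no filter or at least 10 counts in every sample, all 14 and both calls were kept. Library totals only moved the median log2 fold change of all genes by 0.19, and 2463 genes were then called higher and 1538 lower, beside 1944 and 1990 with TMM. In that setting 11 of the 14 kept their call, and the direction reversed for Cpt2 (0.07), Hadha (0.01), Hadhb (0.12), Acaa2 (0.13), Decr1 (0.14) and Hdac2 (0.01), and the cause was not tested. With each mouse left out in turn, 1841 to 2109 genes were called higher and 1790 to 2012 lower. Among the 43 genes, 13 to 14 were then called lower and 2 to 3 higher, newly called genes included, and 12 to 14 of the 14 kept their call, the fewest without C1. By step, the number called lower was 3 to 4 for uptake, 4 to 5 for the mitochondrial steps and 2 to 3 for peroxisomal oxidation. The values that reversed ranged from -0.11 to 0.01 for Acaa2, -0.01 to 0.23 for Acadl, -1.5 to 0.07 for Angptl4, -0.14 to 0.02 for Decr1, -0.15 to 0.03 for Hadhb and -0.14 to 0.45 for Slc27a4, and for these too the cause was not tested. Without the fold limit, 3198 genes were higher and 3168 lower, and the 43 genes had 5 higher and 6 peroxisomal genes lower, since that limit alone was dropped. With a 1.5-fold limit, 6 peroxisomal genes were lower. The promoter motif was held by 7 of the 38 matched genes with up to 2 mismatches, by 1 with at most 1 and by 0 exactly, as stricter matching allows fewer. With 3 mice a group and 1 library each, sex and feeding not given in the sources used here, and the smallest total of 36111035 counts in H5, genes near the floor of 3 counts are the least certain.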
